A study of Mus musculus with 2 samples.

Results

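Accessible regions were examined at 7 genes of the follicular helper T cell programme in mouse regulatory T cells. The genes were Bcl6, Cxcr5, Il21, Il2, Sh2d1a, Ascl2 and Pou2af1. A region was taken when it overlapped the gene body or the 10 kb to either side of it. For Bcl6 the flank was 250 kb to either side, and the stretch from Il2 to Il21 was read as 1 locus, so that the 7 genes gave 6 loci. These loci held 67 of the 68832 regions of replicate 1 on chromosomes 1 to 19, X and Y, and 75 of the 78178 regions of replicate 2. The study measured chromatin accessibility by ATAC-seq, in which a transposase inserts adapters into open DNA, in 2 libraries of 1 group. The cells were labelled as primary regulatory T cells of the C57BL/6NJ strain, with age unknown and sex not collected. The labels link a differentiation protocol for CD4 T cells that was not read here, and the names of the deposited entries hold the words 72hrs, ASTARR and insert, whose meaning the sources used here do not give. The libraries are labelled as biological replicates but carry the same donor identifier, so that separate animals were not established. With 1 group there was no contrast and no test was made. Every value below describes these 2 libraries.

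Follicular helper T cells are CD4 T cells that move into B cell follicles and help B cells in germinal centres. Their programme is set by the repressor BCL6, which acts against the repressor BLIMP1, and IL-2 signalling through STAT5 is known to hold it back. Follicular regulatory T cells are regulatory T cells that carry BCL6 and CXCR5 as well, and regulatory T cells in general make little IL-2 of their own.

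The labelled cell type was checked against its markers by promoter, counted as accessible where a region lay within 1 kb of any annotated start site in both replicates. All 5 regulatory T cell markers (Foxp3, Il2ra, Ctla4, Ikzf2 and Tnfrsf18) and all 5 T cell markers had such a region. So did 1 of 2 cytotoxic T cell markers (Cd8b1), 1 of 5 myeloid markers (Cd14) and 4 of 10 B cell markers (Cd79b, Pax5, Ebf1 and Cr2). Ms4a1, Cd79a and Fcer2a, which mark B cells, had no promoter region in either replicate, and Blk and Cd22 had one in replicate 2 alone. This bears on Cxcr5 and Pou2af1, which B cells also express. The part of B cells in the regions at those 2 genes was not tested.

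The sequences below are the 201 bases around the summit of the regions on which the results turn, or the 200 bases before a gene's outermost annotated start. They are given 5′ to 3′ on the plus strand of mm10, read from the RefSeq GRCm38 assembly. All 7 genes but Sh2d1a and Pou2af1 lie on the minus strand, so their upstream bases begin at the gene and run away from it. Capitals mark motif letters, which are matches of sequence and not shown binding. The first set is the start of Bcl6, where the region was broad, and its strongest distal region, 107 kb upstream, with TTCTGAGAA as STAT letters in the former and TGTTTAC as forkhead letters in the latter.
Bcl6 upstream, chr16:23988853-23989052: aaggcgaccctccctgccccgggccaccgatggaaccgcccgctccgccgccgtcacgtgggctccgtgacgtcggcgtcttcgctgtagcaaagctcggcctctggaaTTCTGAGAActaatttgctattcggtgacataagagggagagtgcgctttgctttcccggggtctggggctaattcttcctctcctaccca
Bcl6 distal, chr16:24095733-24095933: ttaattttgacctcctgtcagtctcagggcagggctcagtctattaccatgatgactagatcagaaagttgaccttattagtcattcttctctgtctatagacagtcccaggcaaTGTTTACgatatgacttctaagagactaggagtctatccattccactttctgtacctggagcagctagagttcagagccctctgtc
The Il2 to Il21 set holds the 200 bases before Il2, whose region was weak, and before Il21, which had none, followed by 3 regions between the genes and 1 in Il21. TGGAAA (NFAT), TTCAAAG (TCF1/LEF1), TGTGGT (RUNX), CAGCTG (E-box), TGAGTCA (AP-1) and GTAAACA (forkhead), or their reverse complements, are in capitals.
Il2 upstream, chr3:37125960-37126159: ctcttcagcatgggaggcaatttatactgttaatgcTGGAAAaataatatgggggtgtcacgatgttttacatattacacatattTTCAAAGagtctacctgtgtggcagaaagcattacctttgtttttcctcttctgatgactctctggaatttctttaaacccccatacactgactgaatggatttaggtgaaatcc
Il21 upstream, chr3:37232637-37232836: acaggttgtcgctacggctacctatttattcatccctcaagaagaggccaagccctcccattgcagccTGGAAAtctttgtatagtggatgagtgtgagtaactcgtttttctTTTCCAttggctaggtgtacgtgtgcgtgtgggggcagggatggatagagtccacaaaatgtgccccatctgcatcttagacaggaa
Il2 at -2.50 kb, chr3:37128361-37128561: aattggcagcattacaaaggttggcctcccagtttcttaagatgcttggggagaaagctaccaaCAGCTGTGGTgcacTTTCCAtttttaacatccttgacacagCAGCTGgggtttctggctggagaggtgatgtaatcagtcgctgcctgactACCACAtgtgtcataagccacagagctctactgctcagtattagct
Il2 at -47.5 kb, chr3:37173340-37173540: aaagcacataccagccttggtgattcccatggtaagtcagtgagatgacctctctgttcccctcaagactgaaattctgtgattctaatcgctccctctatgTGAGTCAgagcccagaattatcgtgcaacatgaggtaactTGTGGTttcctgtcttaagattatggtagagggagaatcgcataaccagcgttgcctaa
Il2 at -64.0 kb, chr3:37189852-37190052: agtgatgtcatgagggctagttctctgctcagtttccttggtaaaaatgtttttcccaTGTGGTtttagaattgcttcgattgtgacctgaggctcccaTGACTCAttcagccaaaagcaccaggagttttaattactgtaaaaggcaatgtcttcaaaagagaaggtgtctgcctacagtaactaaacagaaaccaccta
Il21 intron 2, chr3:37231213-37231413: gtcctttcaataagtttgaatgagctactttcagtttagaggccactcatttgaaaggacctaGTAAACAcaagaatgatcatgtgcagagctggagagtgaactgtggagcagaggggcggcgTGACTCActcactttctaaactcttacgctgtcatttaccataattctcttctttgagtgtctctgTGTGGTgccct
The last set gives the strongest region of Sh2d1a and Ascl2. For Pou2af1 it gives the bases before the start, which hold no motif letters, and the only replicated region of the 6 loci with a composite BATF-IRF match within 100 bp of its replicate 1 summit. Capitals mark ETS (CTTCCAG) and RUNX letters at Sh2d1a and KLF letters (CCACCC) at Ascl2. The Ascl2 summits of the 2 replicates lay 443 bp apart, and the KLF letters were absent near that of replicate 2.
Sh2d1a intron 1, chrX:42502873-42503073: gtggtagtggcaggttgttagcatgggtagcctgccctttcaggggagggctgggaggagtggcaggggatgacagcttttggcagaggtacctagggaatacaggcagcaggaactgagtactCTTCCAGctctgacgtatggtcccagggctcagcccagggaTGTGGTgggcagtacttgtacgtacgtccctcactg
Ascl2 gene body, chr7:142967511-142967711: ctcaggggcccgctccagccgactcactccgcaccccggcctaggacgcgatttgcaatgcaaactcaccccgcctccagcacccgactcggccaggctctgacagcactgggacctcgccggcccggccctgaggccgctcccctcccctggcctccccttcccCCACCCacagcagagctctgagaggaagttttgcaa
Pou2af1 upstream, chr9:51213490-51213689: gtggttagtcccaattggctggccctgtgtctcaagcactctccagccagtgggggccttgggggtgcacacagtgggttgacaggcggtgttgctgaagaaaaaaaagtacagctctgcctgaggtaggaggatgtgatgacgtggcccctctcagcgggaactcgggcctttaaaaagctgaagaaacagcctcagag
Pou2af1 intron 1, chr9:51223389-51223589: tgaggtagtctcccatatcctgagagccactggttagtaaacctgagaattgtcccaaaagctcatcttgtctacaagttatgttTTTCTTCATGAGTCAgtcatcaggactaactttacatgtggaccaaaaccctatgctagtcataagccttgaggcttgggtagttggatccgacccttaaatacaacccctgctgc

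Nearly all regions of the shorter list recurred in the longer one. Of the 67 locus regions of replicate 1, 66 (98.5%) overlapped a region of replicate 2 by at least 1 bp, beside 93.2% of all regions of that list. Of the 75 of replicate 2, 66 (88.0%) were replicated, beside 81.6%. The lists give each region a signal, whose scale is not stated, and a -log10 q, and both were used only as percentiles within their list (0 is the lowest and 100 the highest). The region found in replicate 1 alone stood at the 2.20 percentile of -log10 q. The 9 found in replicate 2 alone ran from 2.97 to 43.9, with a median of 12.8. The replicated regions gave 66 pairs, and the summits of a pair were a median of 25.5 bp apart (20.0 bp over all replicated regions), with 43 of 66 within 50 bp. As a group the locus regions stood in the middle of their lists, with a median -log10 q percentile of 51.4 in replicate 1 and 50.2 in replicate 2, and a lower median by signal, 39.6 and 43.0. In replicate 1, 25.8% of the replicated locus regions reached the 75 percentile of -log10 q, against 26.8% of all replicated regions. A region of low rank cannot be told apart from one that is open in only a few of the cells.

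Promoters were accessible at 6 of the 7 genes, all but Il21, beside 64.4% of 21938 protein-coding genes. Their ranks ran from near the bottom to the upper part of the lists. By the best region near any start, Cxcr5 stood highest, at the 86.3 and 88.4 percentile of -log10 q in replicates 1 and 2. That region covers annotated starts inside the annotated gene body. A gene's main start is here that of the transcript picked by annotation tags and then by length. The region near the main Cxcr5 start so picked stood at 70.2 and 67.1, below that of Pou2af1 at 72.1 and 75.8. Which Cxcr5 start these cells use was not tested. Sh2d1a (52.8 and 66.0), Bcl6 (51.4 and 70.1) and Ascl2 (39.7 and 50.2) lay in the middle, and among these 3 the replicates of a gene differed about as much as the genes did. The Il2 promoter was the weakest in both replicates, at 10.2 and 17.8. It was no longer counted with a -log10 q of 5 or more, or with the 50000 strongest entries of each list by either measure. By signal, those entries also left out the Bcl6 promoter.

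Bcl6 encodes the zinc finger repressor that directs follicular fate. Its gene body spans chr16:23965052-23988852 on the minus strand, and its 524 kb window had 35 entries from the first list and 36 from the second, with 34 pairs that overlapped. That total was not unusual: windows of the same flank around 999 genes of like length held a median of 26, and 32.8% of them held at least as many. The regions were, however, unevenly placed. By summit 27 lay upstream of the start, 2 in the gene body and 5 beyond its end. The 250 kb upstream of the start held 27 replicated regions, while the median over 21931 protein-coding genes was 11 and 5.58% of genes had at least as many. From the start to 250 kb beyond the end there were 8, counting the region that spans the start on both sides, beside a median of 13.0, and 67.9% of genes had at least as many. With the 50000 strongest entries of each list by signal, 17 replicated regions of the window were left. Of the 34 in the whole lists, 12 lay within 100 kb of the gene.

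**Figure D1:**
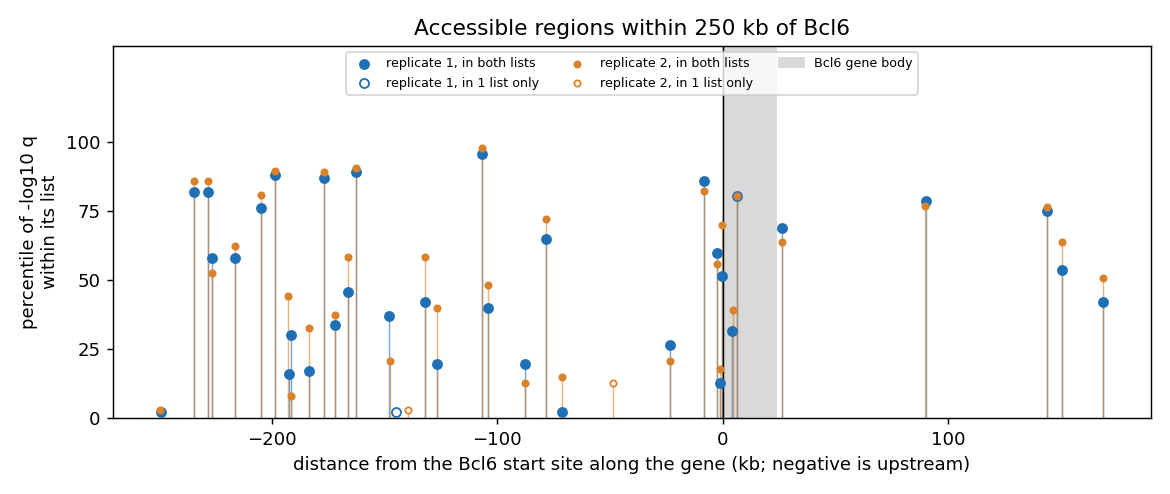
Regions within 250 kb of Bcl6 by distance of the summit from the start site (kb, negative is upstream) and by percentile of -log10 q within their list, for each replicate. Filled points are replicated regions and open points stand in 1 list only. The 27 replicated regions upstream of the start contrast with the 5 beyond the gene's end.

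Most of the upstream regions, the strong ones included, were far from the gene. Of the 27, 19 lay over 100 kb from the start, in a stretch without an annotated protein-coding start, since the nearest such start beyond the window's upstream edge, that of Lpp, was 155 kb past the last region. The 50 kb bins from -250 kb towards the start held 6, 8, 5, 3 and 5 replicated regions. The stretch from -250 to -100 kb is the longer part of the upstream flank, so that evenly spaced regions would also lie mostly there. Both replicates reached the 75 percentile of -log10 q in 11 regions of the window. Of these 7 lay over 100 kb upstream, beside 19 of all 34 replicated regions of the window. The strongest, chr16:24095428-24096355 at -107 kb, had a -log10 q of 219.6 in replicate 1 and 391 in replicate 2, percentiles 95.8 and 98.0. Its signal was 13.0 and 14.3, at the 88.6 and 93.5 percentile, so both measures placed it in the upper part of each list. The region at -163 kb stood at 89.4 and 90.9 by -log10 q but only at 61.3 and 62.9 by signal. Those at -198 kb (88.3 and 89.8) and -177 kb (87.1 and 89.3) were wide, at 1599 and 1614 bp and at 1676 and 1616 bp. The regions at -228 kb (82.2 and 86.2), -234 kb (82.2 and 86.2) and -205 kb (76.1 and 81.1) made up the group of 7. Between -71.3 and -87.8 kb there were 3 replicated regions. That at -71.3 kb stood at 2.20 and 14.8 and that at -87.8 kb at 19.5 and 12.8, but that at -78.3 kb at 64.9 and 72.1.

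All regions within 10 kb of the Bcl6 start ranked higher by -log10 q than by signal in both replicates. The gap, as a mean of both replicates, ran from 4.38 to 45.9 points. This was not particular to Bcl6, since all 9 replicated regions of Cxcr5 did so too, with gaps of 2.14 to 29.3 points. Of the Bcl6 regions, the one over the start and one in intron 1 were broad. The region over the start, chr16:23987948-23989169, was 1222 bp wide in replicate 1 and 1426 bp in replicate 2. By -log10 q it stood at 51.4 and 70.1, but by signal at 10.4 and 29.9. A region of 2244 bp in intron 1, chr16:23981037-23983280, stood at 80.7 and 80.6 by -log10 q and at 33.4 and 36.0 by signal. It covers 23981283, a second start that RefSeq annotates for Bcl6. GENCODE places its second Bcl6 start at 23972380, and no region lay within 1 kb of that position. Another region in intron 1 at 4.20 kb, was among the lowest of both lists by signal (0.652 and 1.41) and higher by -log10 q (31.6 and 39.4). The region at -1.32 kb was narrow, at 267 bp in replicate 1 and 611 bp in replicate 2, and low by -log10 q (12.9 and 18.0) and by signal (0.610 and 1.18). The region at -8.51 kb ranked alike by both measures in replicate 1, at 86.1 by -log10 q and 84.3 by signal, and stood at 82.4 and 75.5 in replicate 2. Ranks by -log10 q at least 40 points above the rank by signal were rare: 2 of 67 locus regions in replicate 1 (2.99%, beside 2.08% of the list) and 3 of 75 in replicate 2 (4.00%, beside 1.64%). All of these lay in the Bcl6 window.

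**Figure D2:**
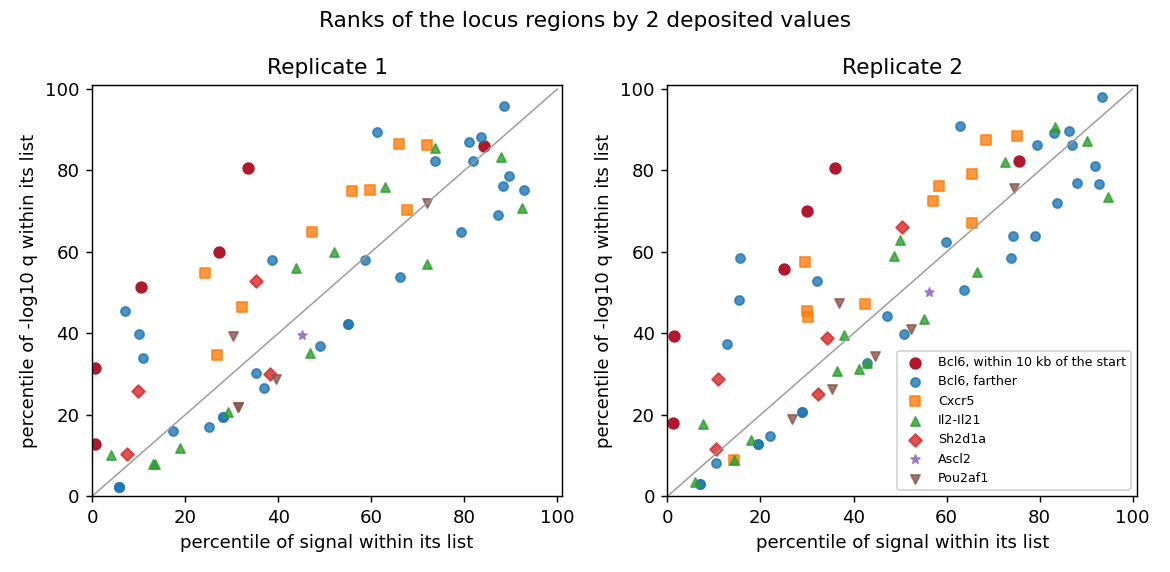
Percentile of signal (x axis) against percentile of -log10 q (y axis) within the list for every region of the 6 loci, replicate 1 on the left and replicate 2 on the right, with the line of equal rank. Dark red points within 10 kb of the Bcl6 start lie above the line, up to 80.7 by -log10 q for 33.4 by signal in replicate 1. The replicated regions of Cxcr5 also lie above it.

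Downstream of Bcl6 the regions were few, but 2 of the 5 were strong by both measures. The region at 144 kb, chr16:23844619-23845321, had a signal of 14.2 and 14.0 (92.9 and 92.7 percentile) and stood at 75.1 and 76.6 by -log10 q. It held forkhead, RUNX, GATA and octamer letters near its replicate 1 summit. The region at 90.4 kb (89.6 and 88.0 by signal, 78.7 and 77.0 by -log10 q) lay 7.52 kb from the start of Sst, the somatostatin gene. No region lay at the start of Rtp2. The start of the other protein-coding gene in the window, Gm37419, lies 0.463 kb from the summit of the Bcl6 start region, and the assay cannot assign that region to one of them. The largest gap between neighbouring replicated regions of the window was 63.1 kb.

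Il2 and Il21 encode cytokines that signal through the common gamma chain. IL-2 drives STAT5 and IL-21 mainly STAT3. Il2 (chr3:37120523-37125959) and Il21 (chr3:37222759-37232636) lie on the minus strand with 96.8 kb between them, a stretch that is upstream of Il2 and downstream of Il21. Here 13 regions were listed for replicate 1 and 16 for replicate 2, and 13 were replicated. Among 1000 single genes about as long as the stretch, with the same flank, the median was 5.00 and 9.40% had at least as many. Windows of the same length centred on the starts of 21931 genes had a median of 6.00, and 14.0% had at least as many. Neither set is made of stretches from one gene to another. Of the 13, 10 lay wholly between the genes, 2 in the Il21 body and 1 over the Il2 start. The 50000 strongest entries by -log10 q left 8.

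**Figure D3:**
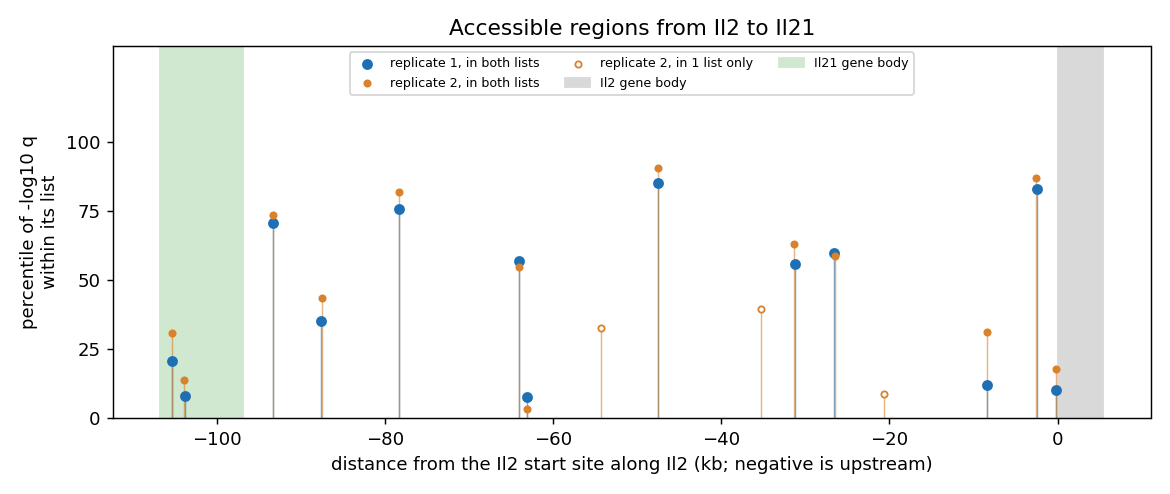
Regions from Il2 to Il21 by distance from the Il2 start (kb, negative is upstream of Il2) and percentile of -log10 q within their list, for each replicate; shaded bands are the gene bodies. The highest points lie between the genes, at -47.5 and -2.50 kb, and those at the Il2 start and in Il21 are low.

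The strong regions of the locus lay between the genes and not at either start. The highest by -log10 q, chr3:37172996-37175105 at -47.5 kb from Il2, was 2110 bp wide and stood at 85.4 in replicate 1 and 90.6 in replicate 2. Next was chr3:37128149-37128758 at -2.50 kb, with 83.3 and 87.2 by -log10 q and 87.8 and 90.3 by signal. Its printed sequence has RUNX letters at 2 places and NFAT and E-box letters in the same 201 bases. The region at -78.3 kb (75.9 and 82.0) also passed the 75 percentile in both replicates. That at -93.3 kb, nearer to Il21, had the highest signal of the locus, 14.0 and 14.7 (92.4 and 94.7 percentile), with a -log10 q percentile of 70.9 and 73.6. Those at -26.6 kb (60.0 and 59.0), -31.3 kb (56.1 and 63.0) and -64.0 kb (57.0 and 55.0) stood above the middle of both lists. The regions at -87.6 kb (35.1 and 43.5), -8.40 kb (11.9 and 31.3) and -63.0 kb (7.86 and 3.52) stood below it. At -20.6, -35.3 and -54.3 kb, all between the genes, there was a region in replicate 2 alone, at the 8.82, 39.5 and 32.8 percentile.

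At the genes themselves accessibility was low. Over the Il2 start, the -log10 q was 4.06 in replicate 1 and 6.82 in replicate 2, and the signal (2.68 and 2.69) was close to the lower end of either list. It spanned 256 bp in replicate 1 and 574 bp in replicate 2. At Il21, the nearest region edge was 1196 bp from the main start, 37232618, in replicate 1 and 1214 bp in replicate 2. That region, chr3:37231145-37231422 in intron 2, stood at 20.8 and 30.8 by -log10 q and overlaps the start of an antisense transcript, Gm12534, so the gene it serves cannot be read from its place. The other region of intron 2, at 2.96 kb from the Il21 start, stood at 7.97 and 13.9.

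Cxcr5 encodes the receptor for CXCL13, the chemokine that draws cells into follicles. It spans chr9:44511787-44561877 on the minus strand. Its locus held 9 replicated regions, and 5.91% of 999 genes of like length, with a median of 3, had at least as many. Over all regions listed at a locus, replicated or not, Cxcr5 had the highest median -log10 q percentile of the 6 loci, 70.2 over 9 regions in replicate 1 and 67.1 over 11 in replicate 2. No region covered the start at 44561877, which was taken as main by annotation tags and length and was not checked against RefSeq. The strongest regions lay in the annotated gene body, far from that start. The region nearest the main start, 44561877, had its edge 634 bp away in replicate 1 and 583 bp in replicate 2, and its summit at -1.26 kb (70.2 and 67.1 by -log10 q). No region lay within 1 kb of the starts at 44556286 and 44556391. The intron 2 region chr9:44526294-44527351, at 35.2 kb, covers annotated starts at 44526421 and 44526582, so it counts as a promoter region. Distances and intron numbers at Cxcr5 depend on the transcript taken as main. It had a signal of 9.56 and 9.69 and stood at 86.3 and 88.4 by -log10 q. The intron 3 region at 46.3 kb equalled it (86.6 and 87.6). Further regions in intron 2 at 23.9 kb (75.2 and 79.2) and beyond the gene's end at 51.4 kb (75.0 and 76.3) were only somewhat weaker. The other 4 replicated regions, at 28.6, 44.3, 21.6 and -6.10 kb, ranged from 34.6 to 65.0 in replicate 1 and from 45.4 to 72.5 in replicate 2. In replicate 2 alone there were regions at 12.8 kb (8.82) and 59.7 kb (43.9).

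**Figure D4:**
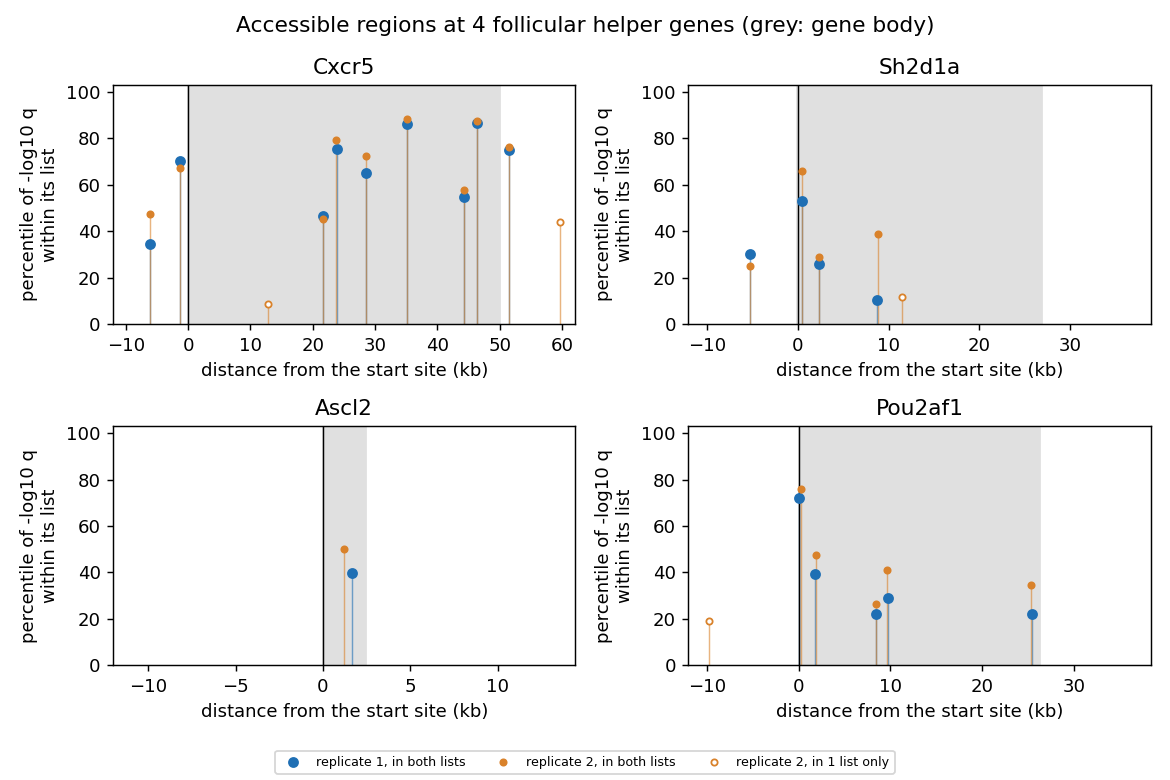
Regions at Cxcr5, Sh2d1a, Ascl2 and Pou2af1 by distance of the summit from the start site (kb, positive is along the gene) and percentile of -log10 q within their list, for each replicate; grey marks the gene body. Cxcr5 has its highest points at 35.2 and 46.3 kb inside the gene, and the other genes have theirs within 2 kb of the start.

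Sh2d1a encodes SAP, the adaptor that SLAM family receptors use to signal, and which T cells need for lasting contact with B cells. It spans chrX:42502453-42529330 on the plus strand and had 4 replicated regions, near the median of 3 for genes of like length, of which 34.8% had at least as many. The strongest, chrX:42502457-42503731, covers the main start, 42502497, and reaches into intron 1. It had a signal of 5.09 in replicate 1 and 6.13 in replicate 2 and stood at 52.8 and 66.0 by -log10 q. The outermost start, 42502453, was covered in replicate 2 alone. The other 3 regions were weak: at 2.32 kb (25.9 and 28.8), at -5.32 kb (30.1 and 25.1) and at 8.77 kb, where the replicates differed most (10.4 and 38.9). A region at 11.4 kb was in replicate 2 alone (11.5). With the 50000 strongest entries by either measure, the start region was the only one left.

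Ascl2 encodes a basic helix-loop-helix factor that can raise Cxcr5 in T cells. It is the shortest of the 7 genes, chr7:142966829-142969264 on the minus strand, and had 1 region in each list. That region, chr7:142967424-142968638, lies inside the gene and covers neither annotated start. Its edge was 626 bp from the outermost start in replicate 1 and 641 bp in replicate 2. The other annotated start, 142968717, was nearer to that edge, which lay at 142968638 in replicate 1 and 142968623 in replicate 2. The region had a signal of 5.99 and 6.83 (45.0 and 56.2 percentile) and a -log10 q percentile of 39.7 and 50.2. The region is rich in GC, at 66.2% and 65.6%. Among genes of like length the median was 1.00 region, and 63.4% had at least as many.

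Pou2af1 encodes OCA-B, a coactivator that joins OCT1 or OCT2 on octamer sites, and is best known from B cells. It spans chr9:51213708-51240080 on the plus strand and had 5 replicated regions, beside a median of 2.00 for genes of like length, of which 19.8% had at least as many. The promoter region chr9:51213456-51214152 stood out within the locus. It had a signal of 9.57 in replicate 1 and 9.61 in replicate 2 (72.0 and 74.5 percentile) and a -log10 q percentile of 72.1 and 75.8. The next, in intron 1 at 1.85 kb, stood at 39.3 and 47.4. The intron 1 regions at 9.78 kb (28.9 and 41.1) and 8.44 kb (22.0 and 26.3) and the region over the last exon at 25.5 kb (22.0 and 34.4) were weaker, and the 50000 strongest entries by -log10 q left 3 of the 5. No region lay within 1 kb of the second annotated start, 51233143.

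Motif letters were sought on both strands in the 201 bases around the replicate 1 summits, in the 66 replicated locus regions and in all 64172 replicated regions. A single locus region makes 1.52%, and no difference was tested. For factors of T cell activation the shares lay near those of all regions: the AP-1 letters TGANTCA stood in 21.2% of locus regions and 18.6% of all, the NFAT letters TGGAAA in 19.7% and 17.4%, and the NF-kB letters in 3.03% and 2.41%. The IRF letters stood in 6.06% and 4.01%, and the composite BATF-IRF letters, which always hold the AP-1 letters, in 1.52% and 1.09%. The STAT letters TTCNNNGAA stood in 15.2% and 13.4%, and the narrower BCL6-like letters TTCCTNGAA, every match of which is also a STAT match, in 4.55% and 3.74%. The ETS letters CNGGAAG stood in 25.8% and 25.6%, the GATA letters AGATAA in 10.6% and 8.05%, the KLF letters CCACCC in 15.2% and 18.9%, and the E-box letters CAGCTG or CACCTG in 19.7% and 25.7%.

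For KLF and E-box the locus share was the lower one. The remaining motifs had the higher share in the loci, except CTCF. The RUNX letters TGTGGT stood in 20 locus regions (30.3%) and in 20.0% of all, with 7 of the 20 in the 13 regions from Il2 to Il21. The TCF1/LEF1 letters CTTTGAA or CTTTGAT, of factors that act early in the follicular programme, stood in 10 (15.2%) and in 8.88% of all. With distal regions alone (61 locus and 48781 in all) the RUNX shares were 31.1% and 23.1%, but the TCF1/LEF1 shares came nearer to each other, 13.1% and 10.4%. Within 50 bp of the summit the RUNX shares were 13.6% and 11.7%, and those of TCF1/LEF1 10.6% and 4.70%. The BLIMP1 letters AAGTGAAA stood in 4 locus regions (6.06%, beside 2.15%), all 4 in the Bcl6 window, at 90.4, -23.4, -163 and -177 kb. The region at -23.4 kb also held STAT, BCL6-like, NFAT and TCF1/LEF1 letters. Of these, only the TCF1/LEF1 letters also stood near its replicate 2 summit. The BLIMP1 letters at 90.4 kb were absent near the replicate 2 summit of that region. The forkhead letters TGTTTAC stood in 3 (4.55%, beside 2.10%), 1 of them the strongest Bcl6 region. The octamer letters ATGCAAAT stood in 2 (3.03%, beside 1.29%), both in the Bcl6 window, at 144 and -78.3 kb, and none at Pou2af1. Those at -78.3 kb were absent near the replicate 2 summit. The CTCF letters stood in 0 of 66, beside 4.25% of all. With the replicate 2 summits they stood in 3.03%, beside 4.26%, so the 0 rests on where the summit falls.

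**Figure D5:**
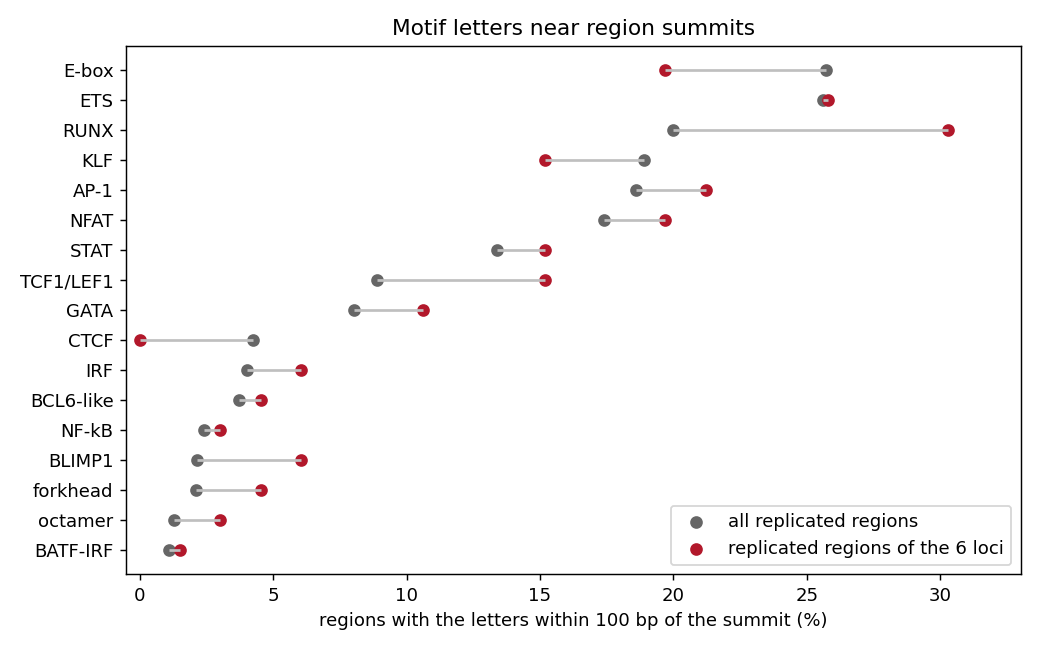
Share of regions (%) with each motif's letters within 100 bp of the replicate 1 summit, for the 66 replicated regions of the 6 loci (red) and all 64172 replicated regions (grey). RUNX lies at 30.3% against 20.0%, TCF1/LEF1 at 15.2% against 8.88% and CTCF at 0.00% against 4.25%.

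The promoters of genes that work with these 7 were accessible nearly throughout. Of 49 such genes in 7 lists, 48 (98.0%) had a promoter region in both replicates, beside the 64.4% of all protein-coding genes. Most of these genes were listed because T cells are known to use them. All 9 follicular programme factors had one, among them Tcf7, Lef1, Batf, Irf4, Maf and Tox2, with 24 replicated regions at Tox, an HMG box factor. All 8 factors that restrain the programme had one too, among them Prdm1, which encodes BLIMP1, at 89.9 and 92.1 by -log10 q. Foxp1, a forkhead factor, had the most regions of any listed gene, 65. The counts of listed genes cover the gene body and 10 kb to either side. They rise with gene length and were not set beside genes of like length. All 8 surface receptors and ligands, all 6 IL-2 and IL-21 receptor and kinase genes, all 5 octamer and E-protein partners and all 6 egress and homing genes had one. The genes with most regions in these lists were Il6ra (17), Il2ra and Jak1 (18 each), Tcf12 (18) and Gpr183 (8).

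The receptor side of the IL-2 and IL-21 pair thus stood high where the cytokine side stood low. The promoter of Il2ra, the high-affinity IL-2 receptor subunit, stood at 90.1 and 92.8 by -log10 q and that of Il21r at 90.9 and 91.0. Against these, the Il2 promoter stood at 10.2 and 17.8 and Il21 had no promoter region. Among SAP partners 6 of 7 promoters were accessible in both replicates. Fyn, the kinase that SAP recruits, had 28 replicated regions, a count likewise not set beside genes of like length, and a promoter at 98.5 and 99.2. The exception was Cd244a, a SLAM family receptor known from natural killer cells, with a promoter region in replicate 1 alone, at the 0.727 percentile.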

How the data were processed

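ATAC-seq regions of 2 libraries of mouse regulatory T cells were deposited as 1 narrowPeak list per library on mm10, per the labels. The sources used here do not give the aligner, the peak caller or the transposase shift. Entry names hold words for masking, duplicate removal and sorting. No counts are in the lists, so depth is unknown and no interval is given. The deposited signal has no stated scale. The lowest deposited -log10 q was 1.00 in both lists. The deposited score stops at 1000 and was not used, nor was the deposited -log10 p.

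From 68903 and 78262 entries, those on chromosomes 1 to 19, X and Y were kept. Coordinates were compared with RefSeq GRCm38 and GENCODE M21, and percentiles were taken within a list. A region was replicated when it overlapped one of the other list by 1 bp. Promoters were 1 kb to either side of any start. Python 3.11.15, numpy 2.4.6, pandas 2.3.3 and pysam 0.24.0 were used, and the steps were tested on simulated data. RefSeq promoters matched 5 of the 7 genes. Genes named were the 7 members, other protein-coding genes with a start in a window, listed genes without a replicated promoter, and the gene with most regions per list. Members and lists were chosen with earlier results of these data known. Single regions and further genes were picked for description after their values were seen. Alternatives tried were -log10 q of 5, the 50000 strongest entries, 50% overlap, other flanks, promoter widths and motif windows, and 1 replicate alone. Some listed genes and some sequences are not reported here.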

Additional observations from a re-analysis of the deposited data

How the results depend on the processing

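The 66 replicated regions of the 6 loci became 38 with the 50000 strongest entries of each list by signal, 40 with gene bodies alone and 100 kb at Bcl6, and 110 with 50 kb and 500 kb at Bcl6. By signal, Bcl6 kept a count of 17, Sh2d1a of 1, and the replicated share fell to 80.9%. By -log10 q, the 50000 strongest gave 8 regions from Il2 to Il21, 1 at Sh2d1a and 3 at Pou2af1. The narrow setting, with 100 kb to either side of Bcl6, gave 12 there. The wide flanks gave 52 at Bcl6, 17 at Cxcr5, 8 at Sh2d1a, 6 at Ascl2 and 9 at Pou2af1. The median percentile of 50.8 over both replicates was 41.3 by signal. Leaving out a replicate gave 67 to 75 regions and medians of 50.2 to 51.4. Accessible promoters numbered 6 of 7. Il2 was lost at a -log10 q of 5 (5) and by the 50000 strongest by -log10 q (5), and Bcl6 and Il2 by signal (4), while a promoter of 2 kb added Il21 (7). The listed genes gave 43 to 49. Of 17 motifs 14 had a higher share in the loci, and 12 or 13 under the other windows. The distal comparison, in which 12 were higher, was added after seeing the data. Motif shares, common ones included, moved with the window (33 of 51 values): within 50 bp of the summit RUNX went from 30.3% to 13.6%, NFAT from 19.7% to 9.09%, KLF from 15.2% to 4.55% and IRF from 6.06% to 0.00%. BATF-IRF was 4.55% over whole regions and 0.00% at replicate 2 summits. The cause of these changes was not tested, apart from the fewer entries or bases searched. Depth could not be assessed, so a place without a region is one where none was listed. No paired analysis was possible because the labels give 1 group.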

Other observations

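Among the 48 listed genes with a promoter region in both replicates, that of Cd40lg stood in the lower part of both lists, and is named here after its values were seen. Cd40lg encodes the ligand by which helper T cells engage CD40 on B cells, and its promoter stood at the 15.7 and 35.0 percentile of -log10 q in replicates 1 and 2. At the other end, the Stat3 promoter stood at 99.8 and 99.7.

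The B cell markers with a promoter region in both replicates were not all weak. Ebf1 stood at 87.3 and 89.0, Cr2 at 77.9 and 77.4 and Pax5 at 77.7 and 81.8, while Cd79b stood at 26.7 and 8.82. Blk and Cd22, with a region in replicate 2 alone, stood there at 2.35 and 22.7. Ms4a1 had no replicated region in the gene body or the 10 kb to either side.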
